A study of Mus musculus with 2 samples.

Results

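A set of 5 genes of the Ms4a family, Ms4a4c, Ms4a6b, Ms4a6c, Ms4a6d and Ms4a7, was read by symbol in 2 single-cell libraries of sorted brain myeloid cells. The libraries list 32589 features, 21 of them Ms4a genes, and all 5 members were detected in both. The cells came from the prefrontal cortex of C57BL/6 mice given either vehicle or corticosterone by oral gavage, with 1 library per group. They were sorted as CD45low CD11b+, a gate meant for microglia, after enzymatic digestion of the tissue at 37 °C, and were sequenced with a Singleron GEXSCOPE kit. Corticosterone is the main glucocorticoid of rodents, and repeated dosing models a depression-like state with an excess of the stress hormone. The dose, the duration, the age and sex of the mice and the number of mice pooled in a library are not given in the sources used here. With 1 library per group no test between groups was possible. Intervals below are 95% intervals for counting error, and treatment cannot be told apart from any other difference between the 2 libraries.

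MS4A proteins are small membrane proteins that cross the membrane several times and sit beside receptors and adaptors at the cell surface or in endosomes. The best known relatives are CD20 of B cells (Ms4a1) and the beta chain of the high-affinity IgE receptor of mast cells (Ms4a2), while the members studied here belong to the macrophage and monocyte branch of the family. In the human brain the cluster is studied because common variants in it are associated with Alzheimer's disease and with the amount of soluble TREM2, a receptor of microglia. In mice Ms4a7 is used as a marker of macrophages at the borders of the brain and of blood-derived macrophages that settle in it.

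The library of the vehicle group held 10500 barcodes after filtering and that of the corticosterone group 17883, with median depths of 3220.5 and 3961 UMIs, each UMI standing for a captured transcript. In 104 cases the same barcode sequence occurred in both libraries. Classes were rebuilt by clustering with every Ms4a gene kept out of the variable genes, and clusters were named from 10 markers per class. Other classes needed markers above the level of the remaining cells, while a cluster was called microglia-like when the microglia markers it held were, on geometric average, at 0.5 or more of their level in all cells. Of the vehicle barcodes 75.1% (7886), and of the corticosterone barcodes 85.5% (15283), were microglia-like. Border-associated macrophage-like barcodes numbered 1062 and 793, and monocyte-like barcodes 215 and 149. Most microglia-like cells of the vehicle library lay in cluster 1 (7221 cells) and most of the corticosterone library in clusters 0 and 2 (10043 and 4313 cells). Microglia markers were also read in the other classes checked. The 10 microglia markers stood in erythroid-like barcodes at a median of 0.811 of their microglia-like level in vehicle and 0.817 in corticosterone, and in neutrophil-like barcodes at 0.581 and 0.350. For a given class, fewer cells expressing a gene and less RNA per cell cannot be told apart in a summed level.

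The members lie together on chromosome 19. The GENCODE annotation of GRCm38, the build the submitters' processing notes name, places 19 Ms4a genes between chr19:10962293-11640851. The members take up 284 kb of it, with Ms4a7 at chr19:11321039-11336146 on the minus strand, Ms4a4c at chr19:11404770-11427246, Ms4a6c at chr19:11469366-11482192 and Ms4a6b at chr19:11516512-11531256 on the plus strand, and Ms4a6d at chr19:11586604-11604849 on the minus strand. All 5 are protein-coding and have transcripts of up to 7 exons, or 8 for Ms4a6b. Ms4a6b overlaps the antisense gene Gm19261, Ms4a6c the transcript BE692007 and Ms4a4c the pseudogene Gm5692, each on the opposite strand, and whether counting used strand is not given in the sources used here. The paralogs also share stretches of transcript. Of the 50-base words in their annotated transcripts, 10.5% for Ms4a6c, 8.19% for Ms4a4c, 3.57% for Ms4a6b, 2.54% for Ms4a6d and 0.306% for Ms4a7 also occur in a transcript of another gene. Reads from those stretches could have been split or dropped by the counting step.

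Ms4a6b, Ms4a6c and Ms4a4c were higher in both libraries in the cluster of interferon-high microglia described below. In the corticosterone library Ms4a7 and Ms4a6d were higher there too, at 2.20-fold and 1.85-fold. The regions before the start of Ms4a6b, Ms4a6c and Ms4a4c are shown. They are the 250 bases before the start in the RefSeq promoter table (GRCm38.p6, plus strand), 5′ to 3′. They lie at chr19:11518309-11518558, chr19:11469118-11469367 and chr19:11407411-11407660. The regions of Ms4a6b and Ms4a4c lie inside the GENCODE gene spans given above, so they precede an internal start. Capitals mark matches to GAAANNGAA, the paired motif bound by interferon regulatory factors.
Ms4a6b: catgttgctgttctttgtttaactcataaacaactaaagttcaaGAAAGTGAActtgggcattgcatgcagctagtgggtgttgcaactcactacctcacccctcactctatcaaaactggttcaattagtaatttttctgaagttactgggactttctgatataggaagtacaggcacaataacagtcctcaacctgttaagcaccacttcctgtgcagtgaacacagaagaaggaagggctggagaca
Ms4a6c: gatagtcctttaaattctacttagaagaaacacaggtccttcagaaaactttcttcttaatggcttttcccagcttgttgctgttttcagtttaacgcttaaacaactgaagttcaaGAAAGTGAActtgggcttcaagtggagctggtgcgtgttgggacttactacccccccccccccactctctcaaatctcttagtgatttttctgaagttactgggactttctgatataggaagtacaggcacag
Ms4a4c: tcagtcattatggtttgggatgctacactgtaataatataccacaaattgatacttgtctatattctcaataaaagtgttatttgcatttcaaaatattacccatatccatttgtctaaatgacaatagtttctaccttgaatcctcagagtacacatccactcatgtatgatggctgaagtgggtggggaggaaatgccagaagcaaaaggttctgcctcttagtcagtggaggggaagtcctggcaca
Ms4a6b and Ms4a6c hold the same match, GAAAGTGAA, whose first base lies 206 and 133 bases before the start. A local alignment of their 300-base windows, which include 50 bases after the start, covered 234 columns with 193 identical (82.5%). Searched on both strands, GAAANNGAA was found in 8.56% of the 32851 windows of the table. Ms4a7 has 2 starts in the table, with a match on the opposite strand 71 bases before the first and on the gene strand 148 bases before the other. No match to these letters lies in the window of Ms4a4c, and the region before its GENCODE start was not searched. The table was read by symbol and gave windows for Ms4a4c, Ms4a6b, Ms4a6c and Ms4a7.

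In microglia-like cells the members did not move together between the libraries. Ms4a4c was higher in corticosterone, Ms4a6d and Ms4a7 were lower, Ms4a6c was moderately lower, and Ms4a6b was almost level. Among genes with a mean of at least 5 CPM (the count per 1e6 UMIs of the class), 1 of 4 members was past 2-fold higher, where 2.21% of the 9677 genes were, and 1 was past 2-fold lower, where 2.06% were. Ms4a7 was under that level. The median log2 ratio over all genes was -0.012.

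**Figure D1:**
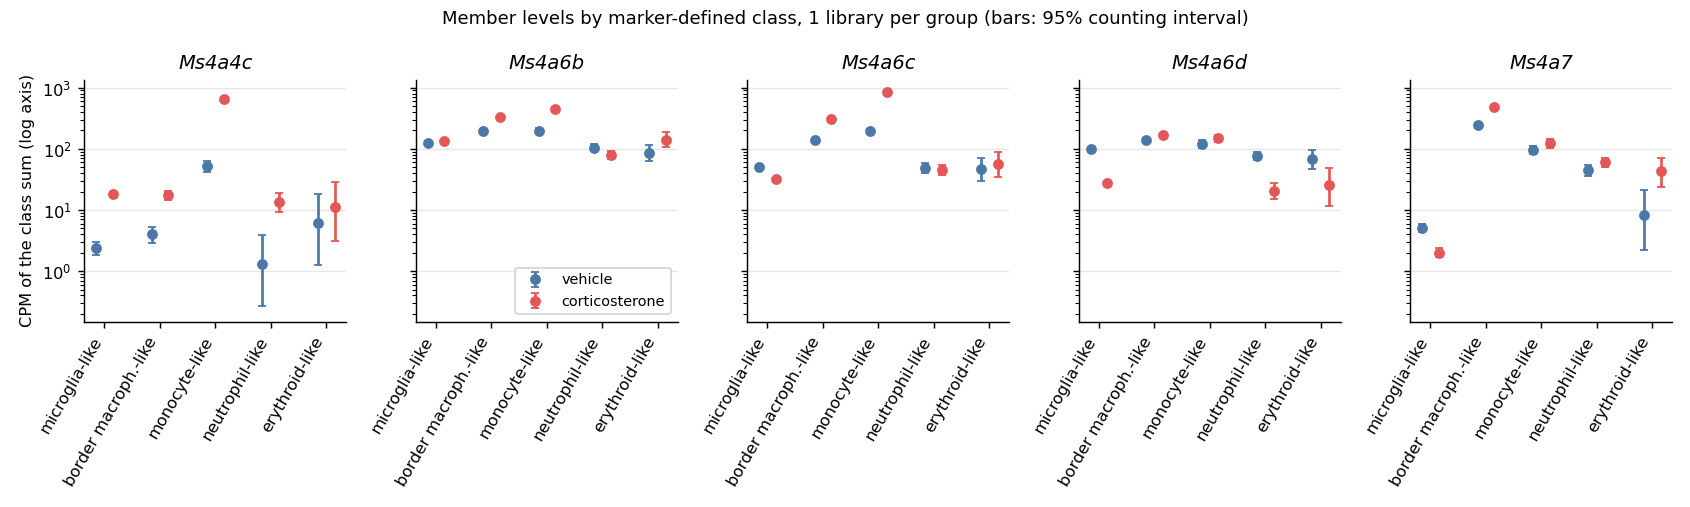
Level of each member (CPM of the class sum, log axis) in 5 marker-defined classes of the vehicle (blue) and corticosterone (red) libraries, 1 point per library with its 95% Poisson interval. Ms4a4c lay highest in monocyte-like barcodes (51.6 and 663 CPM), Ms4a7 in border macrophage-like barcodes (242 and 474 CPM), and Ms4a6d was lower in corticosterone in microglia-like, neutrophil-like and erythroid-like barcodes.

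Ms4a4c is known as an interferon-inducible member expressed in monocytes and lymphocytes. In microglia-like cells vehicle had 2.36 CPM (1.86 to 2.95; 76 UMIs) and corticosterone 18.2 CPM (17.2 to 19.2; 1301 UMIs). The intervals of the 2 libraries did not overlap, which with sums this deep was also so for Ms4a6b at 1.10-fold. The share of all genes without overlap was not counted. The log2 ratio was 2.95 (2.61 to 3.30), or 7.70-fold, and 21 of the 9677 genes had a higher ratio. Few cells carried it. After each cell was thinned to 1000 UMIs, 0.247% of vehicle and 1.53% of corticosterone microglia-like cells had a UMI, against 0.799% and 5.70% unthinned, with class medians of 3192 and 4003 UMIs. Erythroid-like barcodes, which should lack it, gave 6.16 CPM (1.27 to 18.0; 3 UMIs) in vehicle and 11.4 CPM (3.09 to 29.1; 4 UMIs) in corticosterone, at median depths of 2559 and 3766 UMIs. After thinning, 1.53% (0.185 to 5.41) of them had a UMI in vehicle and 0 of 67 in corticosterone, which allows up to 5.36%. On so few UMIs the microglia-like levels of both libraries lay within the intervals of the erythroid-like ones. Erythroid-like barcodes also held the microglia markers at a median of 0.811 and 0.817 of their microglia-like level. The comparison therefore cannot tell whether microglia express Ms4a4c.

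Ms4a6d encodes a protein reported to work with the macrophage receptor VSIG4 in restraining the NLRP3 inflammasome. Vehicle microglia-like cells held it at 101 CPM (97.5 to 105), and corticosterone cells at 27.9 CPM (26.7 to 29.1). The log2 ratio was -1.86 (-1.94 to -1.78). Only 0.362% of the genes tested had a lower ratio. The thinned share of cells with a UMI was 9.81% in vehicle and 2.59% in corticosterone. The lower level was not restricted to microglia-like cells. In neutrophil-like barcodes Ms4a6d went from 77.1 to 20.7 CPM, and in erythroid-like barcodes from 67.7 to 25.5 CPM. These are classes in which the microglia markers were also present, at the shares given above.

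Ms4a6c, a member abundant in inflammatory monocytes, had 49.96 CPM (47.6 to 52.5) in vehicle microglia-like cells, and corticosterone cells had 32.1 CPM (30.8 to 33.4). The log2 ratio was -0.64 (-0.73 to -0.55). Ms4a6b, which is also expressed in T cells and has been reported to associate with the receptor GITR, was at 123 CPM (119 to 127) and 135 CPM (133 to 138). Its log2 ratio of 0.14 (0.08 to 0.19) was the smallest of the 5. Size factors from edgeR and DESeq2 would move all microglial ratios up by 0.088 and 0.107.

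Ms4a7 was close to absent from microglia-like cells. The vehicle level was 5.06 CPM (4.31 to 5.90; 163 UMIs) and the corticosterone level 2.00 CPM (1.68 to 2.35; 143 UMIs). This gave a log2 ratio of -1.34 (-1.68 to -1.01). These levels were 0.0209 and 0.00421 of those in border macrophage-like barcodes of the same library. The 10 border macrophage markers stood in microglia-like cells at a median of 0.0274 and 0.00497 of their level in border macrophage-like barcodes, between 0.0134 (Lyve1) and 0.375 (Stab1) in vehicle and between 0.0027 (Lyve1) and 0.349 (Stab1) in corticosterone, with none at 0. In microglia-like cells without any UMI of these markers (3102 and 4648 cells, a choice made after seeing the data), the log2 ratio of Ms4a7 was -1.64 (-2.50 to -0.82) and that of Ms4a6d -1.89 (-2.05 to -1.72).

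In vehicle, the shares of microglia-like cells with a UMI of Ms4a6b, Ms4a6c or Ms4a6d lay within the intervals of the shares in erythroid-like barcodes. Thinned to 1000 UMIs, 11.1% of vehicle microglia-like cells had a UMI of Ms4a6b, against 9.16% (4.82 to 15.5) of erythroid-like barcodes, which should lack it, at median depths of 3192 and 2559 UMIs. For Ms4a6d the shares were 9.81% and 9.92% (5.39 to 16.4), and for Ms4a6c 4.41% and 6.11% (2.67 to 11.7). In corticosterone Ms4a6c was at 3.14% against 8.96% (3.36 to 18.5), while Ms4a6b and Ms4a6d lay within the erythroid-like intervals. Erythroid-like barcodes also held the microglia markers, at a median of 0.811 and 0.817 of their microglia-like level. The comparison therefore cannot tell whether microglia express these members. Ms4a6d was found in 5.22% (3.17 to 8.03) of vehicle neutrophil-like barcodes and in 17.4% (15.1 to 19.9) of border macrophage-like ones. A UMI of any member was found in 23.8% of vehicle (22.8 to 24.8) and 18.6% of corticosterone microglia-like cells (18.0 to 19.3). At 1000 UMIs per cell each member was seen in a small share of microglia-like cells, which limits how often members were seen together. Among vehicle microglia-like cells with a UMI of Ms4a6b, 10.5% (8.44 to 12.8) also had Ms4a6d, against 9.73% (9.02 to 10.5) of those without. A pair that differed was Ms4a6c and Ms4a6b in corticosterone, where 17.4% (14.1 to 21.1) of cells with Ms4a6c had Ms4a6b, against 12.3% (11.8 to 12.9) of the rest.

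Cells of the corticosterone library were deeper, so the ratios were taken again within bins of depth. Ms4a6d stayed between -1.91 and -1.81 in the 4 bins. Ms4a6c lay between -0.70 and -0.54, and Ms4a4c between 2.34 and 3.41. Ms4a6b lay between 0.08 and 0.32, with intervals that reached 0 in 2 bins. Ms4a7 was below 0 in all 4 bins, with an interval that included 0 in the shallowest.

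**Figure D2:**
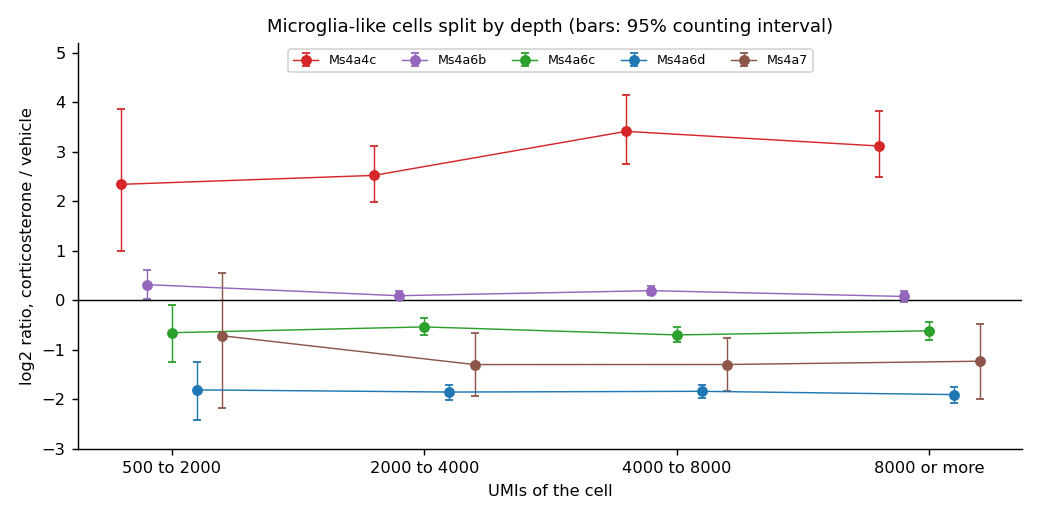
Log2 ratio of corticosterone over vehicle in microglia-like cells split by UMIs per cell (x axis, 4 bins), 1 line per member, bars giving 95% counting intervals. The order of Ms4a4c, Ms4a6b and Ms4a6c above Ms4a6d was kept in each bin, and Ms4a6d lay between -1.91 and -1.81.

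Microglia-like cells fell into 5 clusters with at least 30 cells in each library. Cluster 5 (42 vehicle and 639 corticosterone cells) was led by Cxcl10, Iigp1 and Ifit2, and its summed interferon list was 6.16 and 3.06 times that of all microglia-like cells. Against the other microglia-like cells of the corticosterone library, Ms4a4c was 11.8-fold higher there (139 CPM), Ms4a6c 3.13-fold (90.7 CPM), Ms4a7 2.20-fold, Ms4a6b 2.10-fold (269 CPM) and Ms4a6d 1.85-fold. In the vehicle library Ms4a4c was 18.3-fold higher in cluster 5, from 6 UMIs, Ms4a6c 2.69-fold and Ms4a6b 2.13-fold. Ms4a6d was at 0.925 of the level of the other cells there, with an interval that included no difference. Without cluster 5 the log2 ratio of Ms4a4c between libraries was 2.43 (2.07 to 2.80), and that of Ms4a6b was 0.06 (0.01 to 0.12). Cluster 10 (53 and 57 cells), led by Lpl and Spp1, held Ms4a6b at 0.386 and 0.369 of the level of the other microglia-like cells. In corticosterone the same cluster held Ms4a7 7.81-fold higher (log2 2.97, 1.49 to 4.12), from 6 UMIs, and Ms4a6c 2.36-fold higher (1.24, 0.67 to 1.76), while in vehicle Ms4a7 had 0 UMIs there and Ms4a6c was at 0.881 of the other cells.

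The libraries were also compared inside each cluster. Ms4a6d was lower in corticosterone in all 5 clusters, with log2 ratios from -2.14 (-2.51 to -1.76) in cluster 2 to -0.92 (-1.71 to -0.02) in cluster 5. Vehicle cells in cluster 0, which was made up mostly of corticosterone cells, held 89.5 CPM, close to the 101 CPM of all vehicle microglia-like cells. Ms4a6b had ratios from -0.08 to 0.33 over the clusters, with intervals that all included 0. The widest, in cluster 10, ran from -1.01 to 1.20 on 13 and 20 UMIs, so a 2-fold difference there is not excluded. In cluster 0 Ms4a4c stood at 11.2 CPM in vehicle (4.50 to 23.1; 7 UMIs) and 11.9 CPM in corticosterone, a log2 ratio of 0.09 (-0.96 to 1.41), while in cluster 1 it stood at 1.88 and 8.05 CPM, a log2 ratio of 2.10 (0.72 to 3.23). In clusters 2 and 5 its ratios were 0.57 (-0.68 to 2.22) and 1.79 (0.66 to 3.25), and in cluster 10 it had 0 vehicle and 5 corticosterone UMIs. These intervals overlap, and whether the ratios differ between clusters was not tested. Ms4a6c read lower in corticosterone in clusters 0, 1, 2 and 5, with ratios from -1.34 (-2.13 to -0.66) to -0.56 (-1.21 to 0.17), and read higher in cluster 10, at 44.1 and 75.2 CPM (0.77, -0.24 to 1.87). Ms4a7 had ratios of -1.91 (-3.32 to -0.0052), -2.03 (-7.34 to 0.48) and -2.42 (-3.57 to -1.08) in clusters 0, 1 and 2, while in clusters 5 and 10 it had 0 vehicle UMIs against 15 and 6 in corticosterone.

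**Figure D3:**
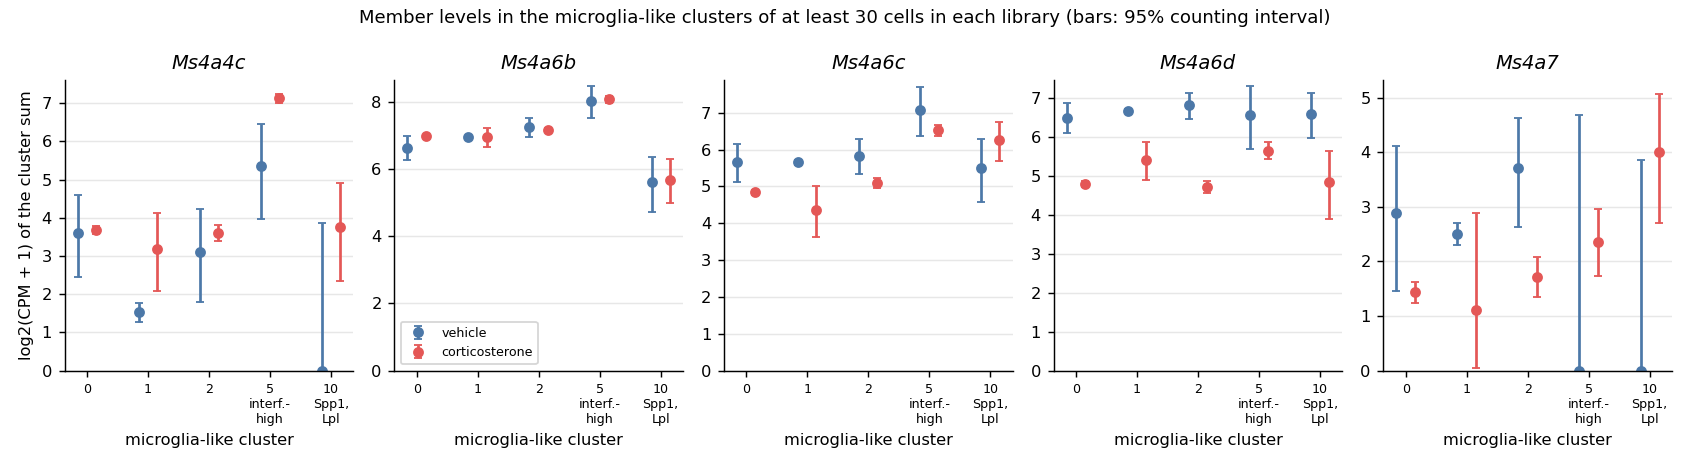
Level of each member as log2(CPM + 1) in the 5 microglia-like clusters, vehicle in blue and corticosterone in red, with 95% Poisson intervals and a separate y axis for each gene. Ms4a6d lay lower in corticosterone in all 5 clusters, and Ms4a4c was highest in cluster 5 (40.1 and 139 CPM), the interferon-high cluster.

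Border-associated macrophages live in the meninges, the choroid plexus and the spaces around blood vessels, and the class here was named from Lyve1, Pf4, Cd163 and the other markers of its list. Ms4a7 was the member that set it apart from microglia. It read 242 CPM (233 to 252) in the vehicle library and 474 CPM (458 to 491) in the other, 47.8-fold (40.8 to 56.4) and 237-fold (201 to 283) that of microglia-like cells of the same library. Thinned to 1000 UMIs, 25.4% and 40.8% of border macrophage-like barcodes had a UMI of Ms4a7, against 0.630% and 0.191% of microglia-like cells. Ms4a6c was 2.81-fold and 9.72-fold the microglia-like level, Ms4a6d 1.39-fold and 5.98-fold and Ms4a6b 1.60-fold and 2.47-fold. Ms4a4c was 1.69-fold in vehicle and 0.9504-fold in corticosterone, with an interval that included no difference. At a finer clustering 961 vehicle and 23 corticosterone barcodes of the class shared a cluster, and 92 and 744 another.

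All 5 members read higher in corticosterone border macrophage-like barcodes. Ms4a4c went from 3.98 to 17.3 CPM (log2 ratio 2.12, 1.60 to 2.65), Ms4a6c from 140 to 312 CPM (1.15, 1.06 to 1.25), Ms4a7 from 242 to 474 CPM (0.97, 0.89 to 1.04), Ms4a6b from 197 to 334 CPM (0.76, 0.68 to 0.85) and Ms4a6d from 140 to 167 CPM (0.25, 0.14 to 0.36). Of the 5, 2 were past 2-fold higher, where 2.96% of 9755 genes were, and none was past 2-fold lower, where 1.89% were. The microglial RNA in these barcodes also differed between the libraries. The 10 microglia markers were at a median of 0.851 of their microglia-like level in vehicle (0.769 to 0.888 over the markers) and 0.652 in corticosterone (0.596 to 0.730), with none at 0. The summed level of the 10 border macrophage markers went from 4326 to 8440 CPM. A further step, added after seeing the data, took the microglial share implied by these markers off each sum and rescaled what was left. The log2 ratios then became 0.23 for Ms4a4c, 0.19 for Ms4a6b, 0.35 for Ms4a6c, 0.23 for Ms4a6d and -0.23 for Ms4a7. After that step no member was past 2-fold, and Ms4a7 read lower in corticosterone. With the class set by the markers of each cell (134 and 318 barcodes) the ratios were 1.38 (-0.34 to 3.76) for Ms4a4c, 0.74 (0.50 to 0.98) for Ms4a6c, 0.29 (-0.0040 to 0.59) for Ms4a6d, 0.25 (0.04 to 0.47) for Ms4a6b and 0.12 (-0.04 to 0.27) for Ms4a7.

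**Figure D4:**
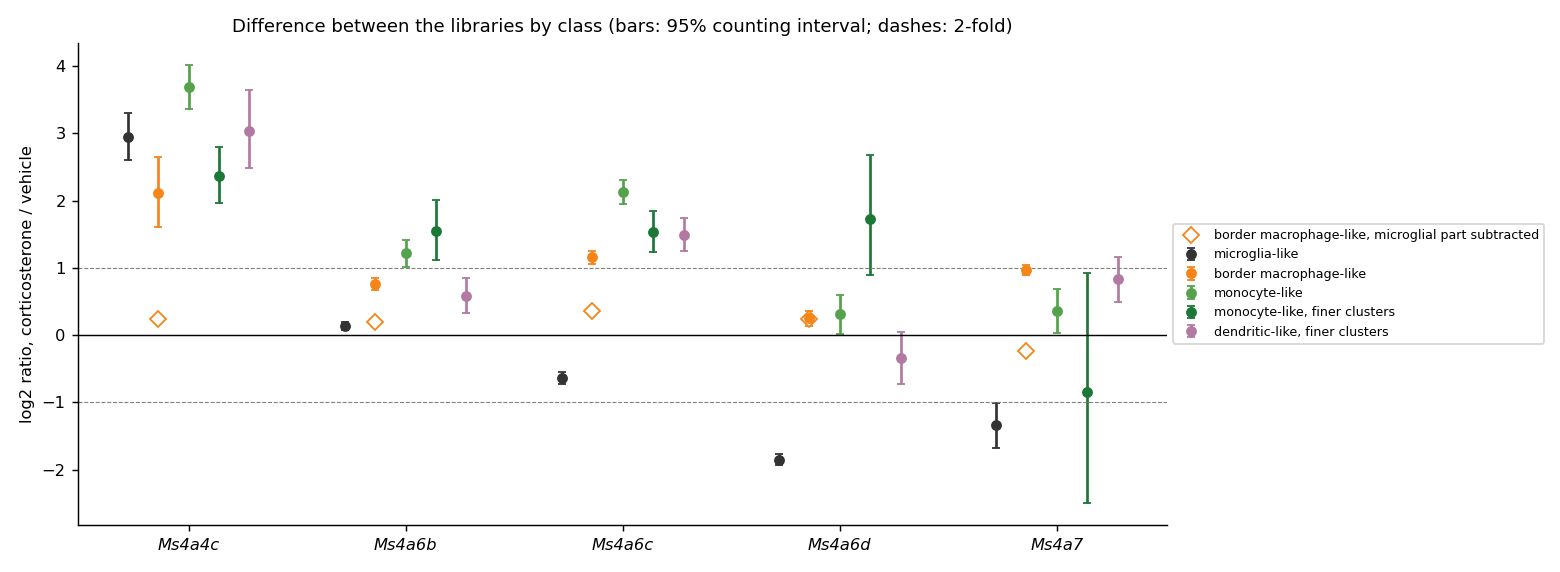
Log2 ratio of corticosterone over vehicle for each member in 5 groups of cells, with 95% counting intervals, a solid line at 0 and dashed lines at 2-fold; open diamonds show border macrophage-like barcodes after the implied microglial part was subtracted. Ms4a6d, Ms4a6c and Ms4a7 lay below 0 in microglia-like cells and above 0 in border macrophage-like barcodes, and the diamonds lay between -0.23 and 0.35.

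Within the border macrophage-like class, barcodes with Ms4a7 also tended to hold Ms4a6c. At 1000 UMIs per cell, 41.5% (36.0 to 47.1) of corticosterone barcodes with a UMI of Ms4a7 had Ms4a6c, against 21.0% (17.3 to 25.0) of those without, and in vehicle the shares were 19.4% (14.8 to 24.7) and 11.3% (9.14 to 13.7). The same comparison for Ms4a6d gave 21.8% (17.4 to 26.8) and 14.2% (11.1 to 17.7) in corticosterone. The content of microglial RNA varies between such barcodes, and its part in these shares was not tested.

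In monocyte-like barcodes Ms4a4c and Ms4a6c reached higher levels than in any other class of the main clustering. For Ms4a4c the vehicle barcodes gave 51.6 CPM (41.2 to 63.8) and the corticosterone barcodes 663 CPM (620 to 708). The log2 ratio was 3.68 (3.36 to 4.02). Ms4a6c was at 192 CPM (172 to 215) and 840 CPM (792 to 891), a log2 ratio of 2.13 (1.95 to 2.31), and Ms4a6b at 193 and 448 CPM, a log2 ratio of 1.21 (1.02 to 1.41). The ratios of Ms4a6d and Ms4a7 were 0.31 (0.02 to 0.60) and 0.36 (0.03 to 0.68). Of the 5 members, 3 were past 2-fold higher, where 7.09% of 9821 genes were, and none was past 2-fold lower, where 7.74% were. The class held different cells in the 2 libraries. At a finer resolution 30 of its 215 vehicle and 60 of its 149 corticosterone barcodes fell in a monocyte-like cluster, and the other 185 and 89 in a cluster with dendritic markers. The microglia markers were at 0.811 and 0.505 of their microglia-like level. The 10 border macrophage markers were also present, at a median of 0.376 and 0.127 of their level in border macrophage-like barcodes.

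In the finer monocyte-like cluster (32 and 60 barcodes) the higher levels were kept for 4 members. Ms4a4c was at 290 CPM (218 to 378) and 1496 CPM (1391 to 1607), a log2 ratio of 2.37 (1.97 to 2.79). Ms4a6c was at 543 and 1566 CPM (1.53, 1.23 to 1.84), Ms4a6b at 258 and 753 CPM (1.55, 1.11 to 2.01), and Ms4a6d at 69.8 and 232 CPM (1.73, 0.90 to 2.68), the last from 13 UMIs in vehicle. Ms4a7 was low there, at 32.2 and 18.0 CPM from 6 and 9 UMIs, and its ratio of -0.84 had an interval from -2.50 to 0.93. The dendritic-like cluster, which held most of the class, was named from 4 of its markers and led by H2-Eb1, H2-Aa and H2-Ab1. Ms4a7 was at 102 and 182 CPM there (0.83, 0.50 to 1.16). The part of border macrophage RNA in that level was not tested. The ratios of the other members there were 3.04 (2.48 to 3.64) for Ms4a4c, 1.49 (1.24 to 1.74) for Ms4a6c, 0.59 (0.33 to 0.84) for Ms4a6b and -0.34 (-0.72 to 0.04) for Ms4a6d. Thinned to 1000 UMIs, 61.7% of the 60 corticosterone barcodes of the finer monocyte-like cluster had a UMI of Ms4a4c. A UMI of Ms4a6c was found in 75.0% of them, against 1.67% for Ms4a7.

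Most of the 16 other Ms4a genes had few UMIs. No UMI of 3 of them was seen in either library, 10 had fewer than 100 UMIs over both, and only Ms4a4a, Ms4a14 and Ms4a8a had more. Ms4a4a, a macrophage member whose human counterpart is tied to soluble TREM2, followed the class of Ms4a7, with 259 of its 324 vehicle and 314 of its 374 corticosterone UMIs in border macrophage-like barcodes (23.5 and 46.4 CPM). Ms4a14 had 157 of 195 and 149 of 174 UMIs there (14.2 and 22.0 CPM). Ms4a8a lay in monocyte-like barcodes, with 14 of 14 and 123 of 142 UMIs. The distant relatives Tmem176a and Tmem176b, on another chromosome, were higher in corticosterone microglia-like cells, from 175 to 395 CPM (log2 ratio 1.18) and from 412 to 786 CPM (0.93), the opposite direction to Ms4a6d.

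Lists of genes known from related pathways were read beside the members. Of 20 interferon-stimulated genes, 19 could be compared in microglia-like cells and 18 were past 2-fold higher, with a median log2 ratio of 2.31, from 0.71 for the RNA sensor gene Ddx58 to 3.64 for Ifi204. Among the members only Ms4a4c lay within that range in microglia-like cells. In border macrophage-like barcodes 16 of 19 were past 2-fold higher (median 1.64, from 0.72 to 2.20). The members other than Ms4a6d lay in that range. With the implied microglial part subtracted they lay outside it, at 0.23 (Ms4a4c), 0.19 (Ms4a6b), 0.35 (Ms4a6c) and -0.23 (Ms4a7). The interferon list was not subtracted in this way, and the share of all genes in its range was not counted. In monocyte-like barcodes 19 of 19 were past 2-fold higher (median 2.188). Of 16 genes whose proteins are known to bind or act beside an MS4A protein, 13 could be compared in microglia-like cells. The cytokine Il1b (3.38) and the receptor Tlr2 (1.17) were past 2-fold higher, none was past 2-fold lower, and the median was 0.18. Trem2 had the lowest ratio, -0.57, from 2036 to 1370 CPM, while its adaptor Tyrobp was nearly level at 0.08. Vsig4 was found in border macrophage-like barcodes, at 0.0906 CPM in vehicle, from 1 UMI, and 13.7 CPM in corticosterone, a log2 ratio of 7.24 (4.73 to 12.6). Of 12 genes known from infiltrating or repopulating brain macrophages, 8 could be compared in microglia-like cells and 6 were past 2-fold higher, led by Cybb (5.17), Axl (3.43) and Apoe (3.36), with H2-Aa lower (-1.33).

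**Figure D5:**
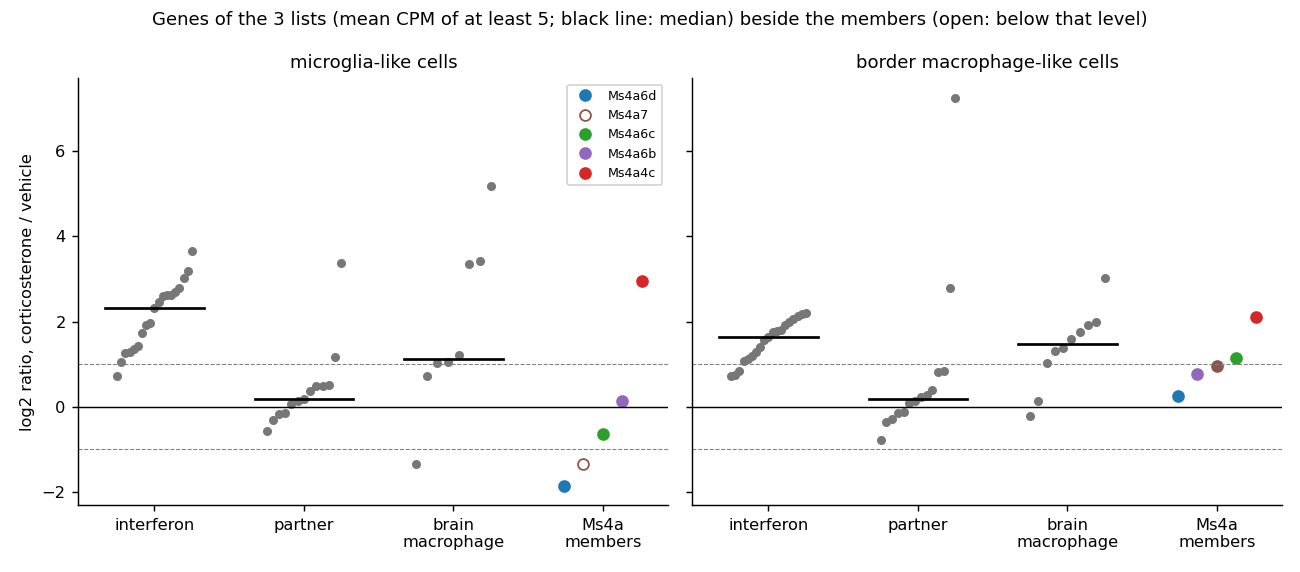
Log2 ratio of corticosterone over vehicle for the genes of 3 lists (grey points, black line at the median) and for the 5 members (coloured), in microglia-like cells (left) and border macrophage-like barcodes (right). In microglia-like cells the interferon list lay between 0.71 and 3.64, and Ms4a4c was the only member inside that range.

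The genes whose levels followed each member most closely were found over 23 sums of cluster and library, as Pearson's r of log2(CPM + 1) among 9261 genes. The sums share libraries and depth, so these values are descriptions. Ms4a7 was closest to Cbr2 (0.94), Mrc1 (0.92) and Chp2 (0.92), of which the former 2 were among the markers used to name the border macrophage class. Ms4a4c was closest to Phf11a (0.82), Ifi209 (0.81) and the immunoproteasome gene Psmb8 (0.81). Ms4a6b was closest to Tmem106a (0.88), Nmral1 (0.85) and the inhibitory Fc receptor gene Fcgr2b (0.85), and Ms4a6c to Lgals1 (0.85), Clec4a1 (0.80) and Dbi (0.79). Ms4a6d was closest to Pnp (0.84), Trappc6a (0.81) and Gas6 (0.81), the ligand of the receptor Axl. Among the members Ms4a6b and Ms4a6c were most alike (0.73), and Ms4a4c and Ms4a6d least (0.00094).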

How the data were processed

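Whole-number UMI counts, as the authors deposited them for 10555 vehicle and 18113 corticosterone barcodes, were the starting point. bcl2fastq 2.19 and the build GRCm38 come from the submitters' processing notes; the aligner, counter and strand setting are not given in the sources used here. Barcodes with at least 500 UMIs, 300 genes and at most 20% mitochondrial UMIs were kept. Scanpy 1.11.5 and leidenalg 0.10.2 clustered both libraries together (2000 variable genes, no Ms4a gene among them, 30 components, 15 neighbours, resolution 0.5). A cluster was named when at least 3 markers of a class were in 10% of its cells at 2-fold or more. A cluster without such a class was called microglia-like if it held 3 or more microglia markers whose level, as a geometric mean, reached 0.5 of that in all cells, which is how every microglia-like cluster got its name. That folds are taken within each library was decided after seeing the data. The cluster left unnamed (679 and 1164 barcodes) had low depth. Scrublet called 0 barcodes in either library, so it was taken not to have worked and no doublet was removed. UMIs were summed per class and library and scaled to CPM. Levels have exact Poisson intervals, ratios exact conditional binomial intervals and shares exact binomial (Clopper-Pearson) intervals, all for counting error only. Genes are named by a rule that takes the 5 members in full, the rest of the family by range, the 3 genes most like each member, and the extremes of 3 lists. The members, lists and markers were chosen with earlier results of these data known. The files of the 2 samples are named with other words than the labels, and groups follow the labels. The ratio calculation was tested on simulated data.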

Additional observations from a re-analysis of the deposited data

Results flagged for a closer look

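Ms4a6c, Ms4a6d and Ms4a7 read lower in corticosterone in microglia-like cells and higher in border macrophage-like barcodes. The log2 ratio in border macrophage-like barcodes was above that in microglia-like cells by 1.79 for Ms4a6c (1.15 against -0.64), by 2.11 for Ms4a6d (0.25 against -1.86) and by 2.31 for Ms4a7 (0.97 against -1.34). With 1 library per group the difference was not tested. After the implied microglial part was subtracted, the border macrophage-like ratios were 0.35, 0.23 and -0.23. In microglia-like cells Ms4a7 was under the mean level set for the comparison with all genes. It stood there at 0.0209 (vehicle) and 0.00421 (corticosterone) of its border macrophage-like level. The border macrophage markers stood there at a median of 0.0274 and 0.00497. In microglia-like cells without a UMI of these markers its ratio was -1.64 (-2.50 to -0.82). The part of border macrophage RNA in the ratio of -1.34 was not tested.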

How the results depend on the processing

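Every ratio rests on 1 library per group, so neither leaving out a replicate nor a replicate check could be run. No paired analysis was possible because each group had 1 library. A median over the 5 members is the ratio of the member in the middle, and its counting interval is that member's own. The median log2 ratio of the 5 members in microglia-like cells was -0.64 (Ms4a6c), and stayed negative in all 14 alternatives. It was -0.46 with genes centred within each library, a setting in which a large cluster stayed unnamed, -0.53 with classes set by the markers of each cell, -0.53 with DESeq2 size factors, -0.48 after thinning to 1000 UMIs, -0.14 with all cells kept, -0.77 without the interferon-high cluster and -0.46 in cells with no UMI of a border macrophage marker. Each member kept its direction in microglia-like cells in all 14, with Ms4a6d between -1.97 and -1.42, Ms4a4c between 2.43 and 3.52 and Ms4a6b between 0.06 and 0.24. In border macrophage-like barcodes the median was 0.97 (Ms4a7). It was 0.29 with classes set per cell, 0.89 after thinning, 0.66 in barcodes no deeper than the median microglia-like cell and 0.23 with the microglial part subtracted. Of single members, Ms4a4c turned to -0.12 (-2.55 to 2.30) in the shallower barcodes and Ms4a7 to -0.23 with the subtraction. In monocyte-like barcodes the median of 1.21 was 1.55 at the finer resolution, where Ms4a7 turned to -0.84. With classes set per cell the monocyte-like median could not be given, since not every member had UMIs in both libraries. The share of microglia-like cells with a UMI of any member, corticosterone minus vehicle, was -5.16 percentage points at 1000 UMIs per cell, and -2.71 and -9.50 at 500 and 2000 UMIs. The count of genes past 2-fold in microglia-like cells was 413, against 3522 with no filter on low counts and 201 at a mean of at least 20 CPM, and in border macrophage-like barcodes 473, against 2114 and 218. Leaving out the barcodes found in both libraries, and other clustering resolutions, did not move the microglia-like or border macrophage-like medians beyond their counting intervals. The choice of cells without border macrophage markers, of shallower barcodes, of the subtraction and of leaving out shared barcodes was made after seeing the data.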
